A study of Mus musculus with 5 samples.

Results

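Promoter peaks that the Nr1d1 pull-down shared with the mock pull-down in mouse Th1 cells are described here. They are the peaks of the Nr1d1 ChIP list that HOMER annotated as promoter-TSS and that overlap a peak of the IgG list by 1 bp or more. The rule found 449 such peaks at 445 genes, of 1248 promoter peaks and 19584 annotated peaks in the ChIP list. Of all annotated ChIP peaks, 5115 (26.1%) overlapped an IgG peak, and at promoters the share was 36.0% (95% Wilson interval 33.4 to 38.7). Counted by gene, 358 of 21896 RefSeq protein-coding genes (1.64%) had a shared promoter peak.

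The cells were naive CD4 T cells from secondary lymphoid organs of wild-type C57BL/6 mice aged 4 to 6 weeks. They had been activated by anti-CD3 bound to the plate and by anti-CD28 in solution, driven towards Th1 with IL-12, IFNγ and anti-IL4, and taken after 3 to 4 days. Chromatin was fixed with 1% formaldehyde and sonicated. By their titles the 5 libraries are 3 Nr1d1 ChIP libraries, 1 IgG mock and 1 input, although the field for the antibody reads Nr1d1 in all 5. Each deposited list covers its antibody as a whole and was called over the same input. No value is given per library, so no test over samples was possible. Nothing in the labels says whether the ChIP libraries came from separate cultures. Intervals given for shares and differences cover only the counting of peaks, and read depth is unknown. Because ChIP gives no expression level, the Th1 identity of the cells could not be checked against marker genes.

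Nr1d1, also called REV-ERBα, is a nuclear receptor that binds heme and represses transcription, and it belongs to the molecular clock. It binds as a monomer to a RORE, the core AGGTCA with an AT-rich flank, or as a pair to the RevDR2 element, and recruits the corepressor NCoR with the deacetylase HDAC3. An IgG mock uses immunoglobulin without a chosen target, and serves to show where DNA is recovered without recognition of Nr1d1. Many mammalian promoters are CpG islands, stretches rich in G, C and the dinucleotide CG.

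Where a promoter sequence could be read, for 203 of the 449 members, it was mostly of the CpG island kind. The 250 bases upstream of the start are shown for 5 members that span the range, from RefSeq on GRCm38.p6, 5′ to 3′ on the gene's strand, with the bases under both the ChIP and the IgG peak in capitals. Nrg3 (chr14:39473089-39473338, minus strand), which encodes a ligand of the receptor ErbB4, had the longest ChIP peak of those with an FDR printed as 0, and both peaks covered the whole stretch. Klf4 (chr4:55532476-55532725, minus strand) encodes a zinc finger transcription factor, and Barx1 (chr13:48662786-48663035, plus strand) a homeodomain protein. Mpped1 (chr15:83779773-83780022, plus strand) is shown for its high GC content of 88.8%. Olfr1036 (chr2:86074454-86074703, plus strand), an olfactory receptor gene, is shown as the contrast, with 22.4% GC and 1 CG dinucleotide.
Nrg3: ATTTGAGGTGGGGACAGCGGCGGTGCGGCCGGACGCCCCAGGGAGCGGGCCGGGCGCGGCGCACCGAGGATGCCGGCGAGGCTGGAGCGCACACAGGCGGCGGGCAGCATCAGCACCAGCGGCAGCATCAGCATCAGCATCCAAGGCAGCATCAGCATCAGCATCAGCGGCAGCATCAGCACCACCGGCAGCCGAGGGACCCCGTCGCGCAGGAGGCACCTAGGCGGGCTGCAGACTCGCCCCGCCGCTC
Klf4: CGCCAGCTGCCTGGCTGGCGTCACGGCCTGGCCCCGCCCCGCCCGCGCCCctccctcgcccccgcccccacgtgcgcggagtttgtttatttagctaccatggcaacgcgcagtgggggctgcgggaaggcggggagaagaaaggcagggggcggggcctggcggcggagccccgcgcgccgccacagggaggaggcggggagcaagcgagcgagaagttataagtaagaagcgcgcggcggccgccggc
Barx1: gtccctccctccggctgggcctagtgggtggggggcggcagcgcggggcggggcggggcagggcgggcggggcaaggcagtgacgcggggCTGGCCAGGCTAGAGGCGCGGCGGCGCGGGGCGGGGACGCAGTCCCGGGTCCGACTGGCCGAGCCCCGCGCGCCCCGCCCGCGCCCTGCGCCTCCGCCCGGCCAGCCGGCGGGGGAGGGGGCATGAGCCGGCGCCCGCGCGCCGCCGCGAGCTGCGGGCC
Mpped1: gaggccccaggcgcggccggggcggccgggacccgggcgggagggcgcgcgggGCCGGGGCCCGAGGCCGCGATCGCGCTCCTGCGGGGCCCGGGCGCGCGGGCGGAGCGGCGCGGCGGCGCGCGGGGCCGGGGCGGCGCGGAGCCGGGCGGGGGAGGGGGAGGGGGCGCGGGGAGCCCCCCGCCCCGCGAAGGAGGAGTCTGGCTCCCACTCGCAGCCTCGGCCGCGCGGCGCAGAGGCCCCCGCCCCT
Olfr1036: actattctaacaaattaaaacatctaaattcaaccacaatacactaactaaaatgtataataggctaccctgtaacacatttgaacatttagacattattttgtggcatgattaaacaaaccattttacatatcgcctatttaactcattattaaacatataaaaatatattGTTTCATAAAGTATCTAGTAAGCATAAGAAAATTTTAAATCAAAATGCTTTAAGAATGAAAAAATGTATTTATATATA
The CG dinucleotide occurred 27 times in the Nrg3 stretch, 32 times in Klf4, 40 times in Barx1 and 47 times in Mpped1.

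A RefSeq promoter window, from 250 bases before to 50 bases after the start, lay under 203 of the 449 members (45.2%), and 172 of these windows belonged to the peak's own nearest gene. The window and the peak shared a median of 173 bp and in some members only a few, such as 4 bp at Crebbp. For comparison, windows lay under 291 of 799 ChIP promoter peaks without an IgG overlap, called ChIP-specific here, and under 171 of 477 IgG promoter peaks without a ChIP overlap, called IgG-only. A window was called CpG rich when its GC content was above 55% and its ratio of observed to expected CG above 0.65. Of the member windows 172 (84.7%, 79.1 to 89.0) were CpG rich, against 73.9% of ChIP-specific windows, 66.1% of IgG-only windows and 27.9% of all 32851 RefSeq windows. The difference was 10.8 percentage points from ChIP-specific windows (95% Newcombe interval 3.54 to 17.7) and 18.6 points from IgG-only windows (9.94 to 27.2). With windows of the peak's own gene that share at least 100 bp with the peak, the shares were 86.4% of 132 members, 81.5% of 157 ChIP-specific and 71.1% of 90 IgG-only windows. The intervals of the first of these, 79.5 to 91.2, and the second, 74.7 to 86.8, overlap.

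The median CpG ratio was 0.942 in member windows, 0.826 in both other peak groups and 0.384 over all windows. Median GC content was 73.3% in members, 69.0% in ChIP-specific, 68.3% in IgG-only and 52.7% in all windows. Among the members the ratio ran from 0 to 1.32, and its quartiles were 0.780 and 1.06.

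**Figure D1:**
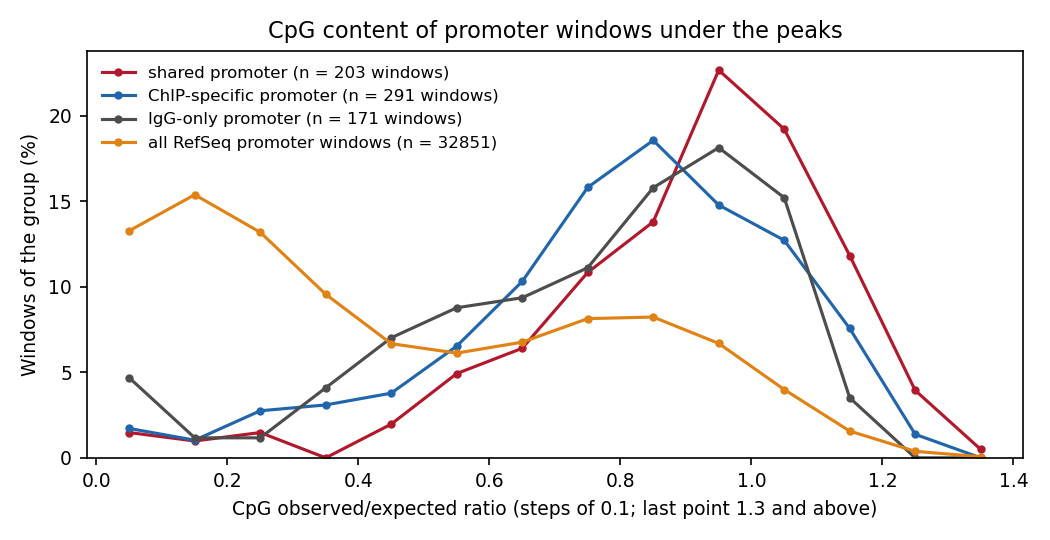
Share of RefSeq promoter windows (%, vertical axis) by ratio of observed to expected CG (horizontal axis, steps of 0.1) under shared, ChIP-specific and IgG-only promoter peaks and over all windows. Shared promoter windows lie furthest to the right, with a median of 0.942 against 0.384 for all windows.

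Tandem runs of the triplet CGG, read in any frame and on either strand, were a feature of the member windows. Runs of 4 or more units were found in 37 of 203 windows (18.2%, 13.5 to 24.1), against 13.7% of ChIP-specific, 8.19% of IgG-only and 1.80% of all windows. The difference from IgG-only windows was 10.04 points (3.11 to 16.8), and that from ChIP-specific windows 4.48 points with an interval from -1.98 to 11.3. Within CpG-rich windows alone, 20.9% of member windows held a run, 18.1% of ChIP-specific, 12.4% of IgG-only and 6.17% of all windows. In 19 of the 37 windows the longest run lay wholly under both peaks, and in 26 wholly under the ChIP peak.

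Of the members whose run lies upstream of the start and under both peaks, 6 are shown. Each has 25 bases on either side and the run in capitals. Usp7 (chr16:8738425-8738498, minus strand), a deubiquitinase, had the longest run of all member windows with 8 units, and Dyrk1a (chr16:94570067-94570137, plus strand), a dual-specificity kinase, had 7. Ebf3 (chr7:137314520-137314587, minus strand), a helix-loop-helix transcription factor, had 6 units. Runs of 4 units stand for Slc4a4 (chr5:88887183-88887244, plus strand), a sodium bicarbonate cotransporter, Sdk2 (chr11:114067121-114067182, minus strand), a synaptic adhesion molecule, and Chrna7 (chr7:63212541-63212602, minus strand), a nicotinic acetylcholine receptor subunit.
Usp7: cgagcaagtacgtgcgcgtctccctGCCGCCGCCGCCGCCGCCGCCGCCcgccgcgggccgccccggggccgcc
Dyrk1a: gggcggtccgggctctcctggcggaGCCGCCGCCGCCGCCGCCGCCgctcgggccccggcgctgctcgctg
Ebf3: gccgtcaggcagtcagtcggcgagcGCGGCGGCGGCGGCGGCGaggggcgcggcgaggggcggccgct
Slc4a4: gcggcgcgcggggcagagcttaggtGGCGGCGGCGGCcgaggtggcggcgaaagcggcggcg
Sdk2: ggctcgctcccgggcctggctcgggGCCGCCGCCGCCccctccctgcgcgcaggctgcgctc
Chrna7: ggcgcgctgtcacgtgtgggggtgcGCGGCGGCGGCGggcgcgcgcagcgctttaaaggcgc
In these 6 stretches GC content ran from 79.0% to 87.8%.

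Motifs were searched on both strands of the same windows, and a match describes letters only. The core AGGTCA occurred in 8 member windows (3.94%, 2.01 to 7.58), against 8.25% of ChIP-specific, 14.04% of IgG-only and 16.3% of all windows. The difference from ChIP-specific windows was -4.31 points (-8.51 to 0.193) and that from IgG-only windows -10.1 points (-16.4 to -4.37). Within CpG-rich windows alone the shares were 2.91% of members, 7.91% of ChIP-specific, 9.73% of IgG-only and 8.83% of all. The 8 windows lay at Ubxn10, 6530409C15Rik, Frmd5, Ildr2, Ntn4, Arl4a, Spg20 and Prps2, named because they are all that held the letters. The RevDR2 element was in none of the 203 member windows, which allows a share of up to 1.86% by the Wilson interval, and in 3 of all 32851. The GC box GGGCGGG was in 63.5% of member windows, 63.2% of ChIP-specific, 51.5% of IgG-only and 25.6% of all. In CpG-rich windows alone it was in 68.6% of members, 71.2% of ChIP-specific, 66.4% of IgG-only and 60.6% of all. The pentamer CCAAT was in 20.7% of members, 26.1% of ChIP-specific, 28.1% of IgG-only and 37.4% of all windows. For CpG-rich windows its shares were 17.4%, 24.7%, 20.4% and 33.9%, in the same order. The hexamer TATAAA was in 3.94% of members, 4.81% of ChIP-specific, 4.09% of IgG-only and 13.6% of all windows. Its shares of CpG-rich windows were 2.91%, 2.33%, 3.54% and 3.86%. The E-box CACGTG was in 9.36% of members, 10.7% of ChIP-specific, 9.36% of IgG-only and 7.15% of all windows. Among CpG-rich windows the order changed, with 8.72% of members, 12.6% of ChIP-specific, 10.6% of IgG-only and 11.6% of all. A motif of 4 runs of at least 3 G, with 1 to 7 bases between runs, was in 54.7% of members, 47.8% of ChIP-specific, 40.4% of IgG-only and 18.6% of all windows. In CpG-rich windows alone this motif was in 58.1% of members, 54.0% of ChIP-specific, 48.7% of IgG-only and 36.3% of all.

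Sharing with IgG followed the strength of the ChIP peak, at promoters as in other classes. The deposited FDR has 6 decimals, and of ChIP promoter peaks with an FDR printed as 0, 83 of 92 (90.2%, 82.4 to 94.8) overlapped an IgG peak. In other classes the share in that band was 90.8% (89.4 to 92.1). For FDR above 0 to 0.005 the shares were 67.5% at promoters and 64.95% elsewhere. The bands parted below that strength. Between 0.005 and 0.01 the promoter share was 45.3% (40.5 to 50.2) against 29.4% (28.2 to 30.7), and between 0.02 and 0.05 it was 19.3% (15.2 to 24.1) against 7.94% (7.25 to 8.69). By length the order differed at the top. Peaks of 100 to 200 bp were shared at 19.8% (16.7 to 23.3) of promoters and 10.3% (9.75 to 11.0) of other sites, and peaks of 325 to 400 bp at 69.2% and 68.8%. At 425 bp and more the shares were 75.5% (66.0 to 83.1) at promoters and 63.2% (58.0 to 68.1) elsewhere. Exon peaks, with 32.6% shared, came closest to promoters, while introns had 24.9% and intergenic sites 25.1%. Class and overlap define the members, so these shares are descriptions. From the side of the mock, 458 of 935 IgG promoter peaks (49.0%, 45.8 to 52.2) overlapped a ChIP peak.

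**Figure D2:**
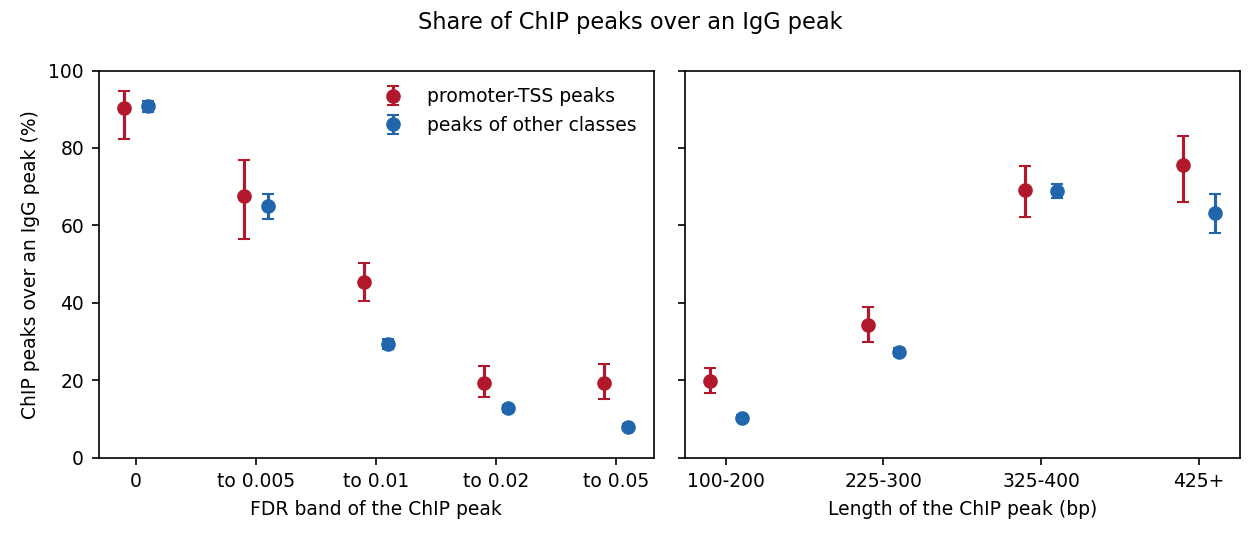
Share of ChIP peaks that overlap an IgG peak (%, vertical axes) by FDR band (left) and by peak length in bp (right), for promoter-TSS peaks and all other classes, with 95% Wilson intervals. Both kinds lie near 90% at an FDR printed as 0, and at FDR above 0.02 promoters lie at 19.3% against 7.94%.

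The members were longer than promoter peaks found in 1 list alone, with a median of 300 bp against 200 bp for both ChIP-specific and IgG-only peaks. The quartiles were 225 and 375 bp, and the range was 100 to 900 bp. Their median FDR was 0.00860, against 0.0131 in ChIP-specific promoter peaks, and an FDR printed as 0 was held by 18.5% (15.2 to 22.3) against 1.13%. IgG-only promoter peaks had a lower median FDR in their own list, 0.00679, and 13.2% of them had an FDR printed as 0. A longer peak has more bases with which to meet the rule, and the part of length in these differences was not tested.

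The first 15 members at protein-coding genes, in order of ChIP FDR, IgG FDR and length, all had an FDR printed as 0 in both lists. Nrg3 had a ChIP peak of 850 bp and an IgG peak of 925 bp, centred 37 bp upstream of the TSS by the ChIP peak. Tmem132b had 700 bp in the ChIP list and 425 bp in the IgG list, where the peak was annotated to an exon. Pcsk6, a proprotein convertase, had 625 and 550 bp, and Tmem28 had 625 and 600 bp. At Nos1ap, the adaptor of neuronal nitric oxide synthase, the ChIP peak of 600 bp was covered to 58.3% by an IgG peak of 375 bp. The opposite held at Dyrk1a, where the IgG peak of 600 bp was longer than the ChIP peak of 575 bp. Asxl3, a scaffold of the BAP1 deubiquitinase, had 525 bp in both lists. The synaptic calcium sensor Syt7 had 500 and 275 bp, and the kinase Map4k3 had 475 and 350 bp. Mpped1, a metallophosphoesterase, had 450 bp in the ChIP list, wholly inside an IgG peak of 500 bp. At Tfdp1, the dimerization partner of E2F factors, the lengths were 425 and 225 bp. HOMER put this ChIP peak 812 bp upstream of a TSS. The RefSeq window of Tfdp1 shared 203 bp with the peak, so the annotations use different starts there. Dnm3, a dynamin, had the same start and end in both lists, 400 bp long and 911 bp upstream. Crxos, Pabpc1l2a-ps and the oocyte histone chaperone Npm2 complete the 15, with ChIP peaks of 475, 475 and 400 bp. The ChIP peak was the longer of the pair at most of these genes, and the IgG peak was the longer at Nrg3, Dyrk1a and Mpped1.

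**Figure D3:**
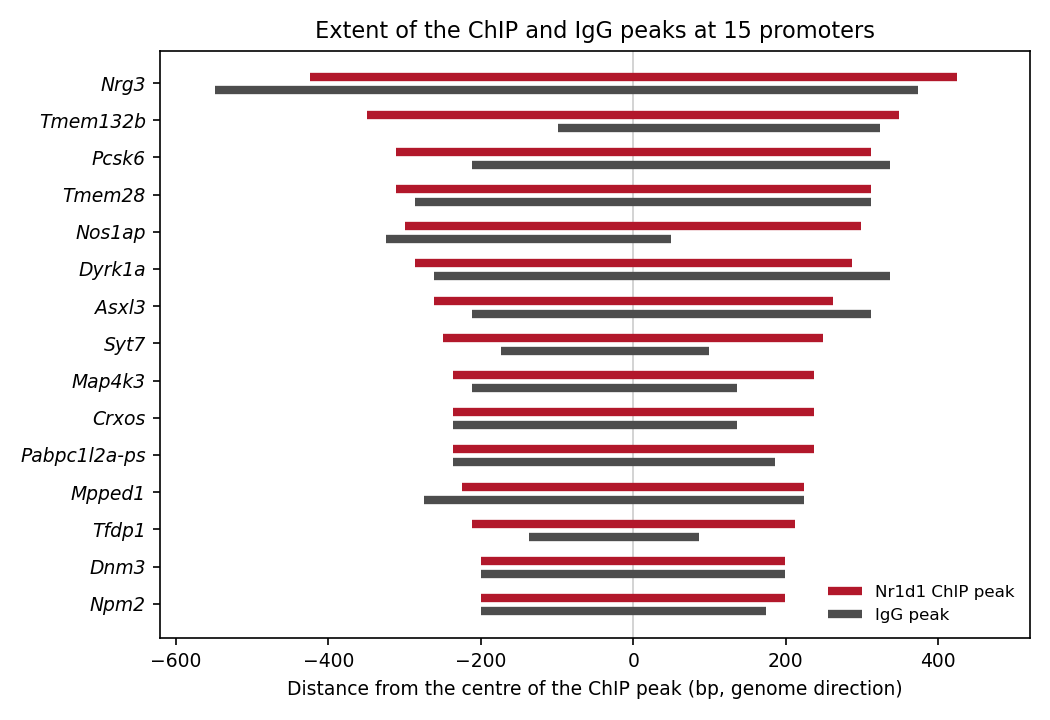
Extent of the ChIP peak and of the overlapping IgG peak at the first 15 protein-coding members, as distance in bp from the centre of the ChIP peak (horizontal axis). The IgG peak reaches past the ChIP peak on one side at Nrg3 and Mpped1, ends well short of it at Tmem132b and Nos1ap, and matches it at Dnm3.

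Members at genes of other kinds were the more alike in the pull-downs. Of the 449, 362 (80.6%) had a protein-coding nearest gene, 29 a lncRNA, 14 a pseudogene and 10 a small or other RNA, and 34 had a gene name without a RefSeq match. The protein-coding share was 74.3% in ChIP-specific promoter peaks, a difference of 6.28 points (1.41 to 10.9). An FDR printed as 0 in both lists was held by 31 of the 87 members at other or unmatched genes (35.6%) and by 36 of the 362 at protein-coding genes (9.94%), a difference of 25.7 points (15.8 to 36.5). Identical ends in both lists were found for 13.8% and 6.08%, a difference of 7.72 points (1.28 to 16.7). The median ChIP length was 325 bp at the 87 and 275 bp at the 362.

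The first member of the other kinds was Gm22405, which RefSeq names Rn7s1, a gene of the 7SL RNA of the signal recognition particle, transcribed by RNA polymerase III. Its ChIP peak was 625 bp and its IgG peak 600 bp, 192 bp downstream of the TSS (chromosome 12, 69159176 to 69159799, mm10). The predicted lncRNA Gm24105 had 600 bp with identical ends in both lists, and Gm27040 had 525 and 375 bp. E130102H24Rik and Gm28523 both had 500 and 350 bp, 1700064H15Rik had 450 and 375 bp, Gm14988 had 425 and 375 bp, and Gm22347 had 400 and 375 bp. Named after their values were seen, copies or pseudogenes of the 5S ribosomal RNA were also members. The peak at n-R5s88 was 375 bp in both lists with identical ends, that at n-R5s194 was 375 and 400 bp, and that at n-R5s71 was 275 and 300 bp. MicroRNA genes among the members were Mir124a-3, Mir3475, Mir6236 and Mir6407, 4 of 1193 (0.335%), beside 1.64% of all protein-coding genes. The same list had 9 genes with a ChIP-specific and 5 with an IgG-only promoter peak. No share over all genes of other kinds was computed. The peak at Mir124a-3, a gene of the neuronal miR-124, lay 681 bp upstream.

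Over all 449 pairs the peaks of the 2 pull-downs lay largely over one another. The centres lay a median of 25 bp apart, and a median of 84.6% of the ChIP peak was covered. The IgG peak lay inside the ChIP peak in 222 pairs and the ChIP peak inside the IgG peak in 141, with identical ends in 34 pairs counted in both. The ChIP peak was longer in 240 pairs (53.5%), the IgG peak in 153 (34.1%, 29.8 to 38.6), and 56 were equal. In shared peaks of other classes the IgG peak was longer in 23.1%, so that promoters lay 10.9 points higher (6.52 to 15.6). The IgG peak also had the lower FDR at 273 members (60.8%, 56.2 to 65.2) and at 46.5% of the other shared peaks, a difference of 14.3 points (9.51 to 18.9). An FDR printed as 0 was held by 191 members in the IgG list and by 83 in the ChIP list. FDR values of lists with unequal numbers of libraries behind them, 3 and 1, need not be on a like scale.

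**Figure D4:**
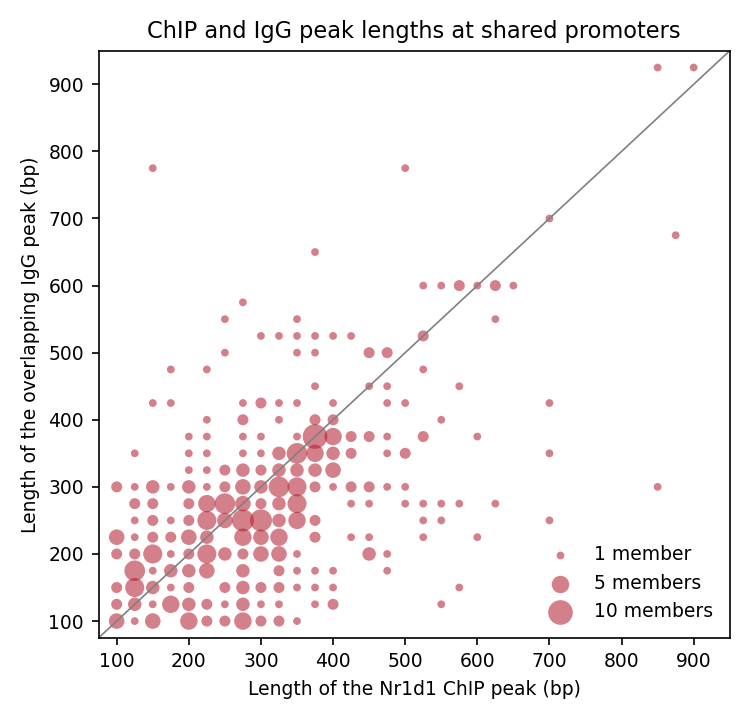
Length of the IgG peak (bp, vertical axis) against length of the ChIP peak (bp, horizontal axis) for the 449 members, with point area in proportion to the number of members and the line of equal length. More members lie below the line (240) than above it (153).

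Identical ends went with low CpG content. The 34 pairs made up 7.57% of members against 13.2% of shared peaks of other classes, a difference of -5.67 points (-8.00 to -2.70). Of the 10 with a RefSeq window 2 were CpG rich, against 170 of 193 (88.1%) with differing ends, a difference of -68.1 points (-82.9 to -36.6). Their median CpG ratio was 0.336 against 0.950. Olfr1036, printed with its AT-rich sequence, was among them with a peak of 225 bp in both lists.

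Within the promoter-TSS class, the shared peaks did not differ in position from ChIP-specific or IgG-only peaks beyond the counting intervals. That class selects peaks near a TSS, so the 3 groups were alike in position partly by definition. The median distance of the centre from the TSS was -56 bp, from 999 bp upstream to 700 bp downstream, and 211 members (47.0%) lay within 100 bp. Centres downstream of the TSS made up 35.6% (31.3 to 40.2), against 37.3% of ChIP-specific peaks, a difference of -1.66 points (-7.14 to 3.94). The member at Ilk, the integrin-linked kinase, was centred on the TSS at 0 bp, and those at Snx7, Mta1, Npepl1 and Etl4 within 1 bp. Chromosome X held 35 members (7.80%), against 8.14% of ChIP-specific promoter peaks, and Y held none.

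**Figure D5:**
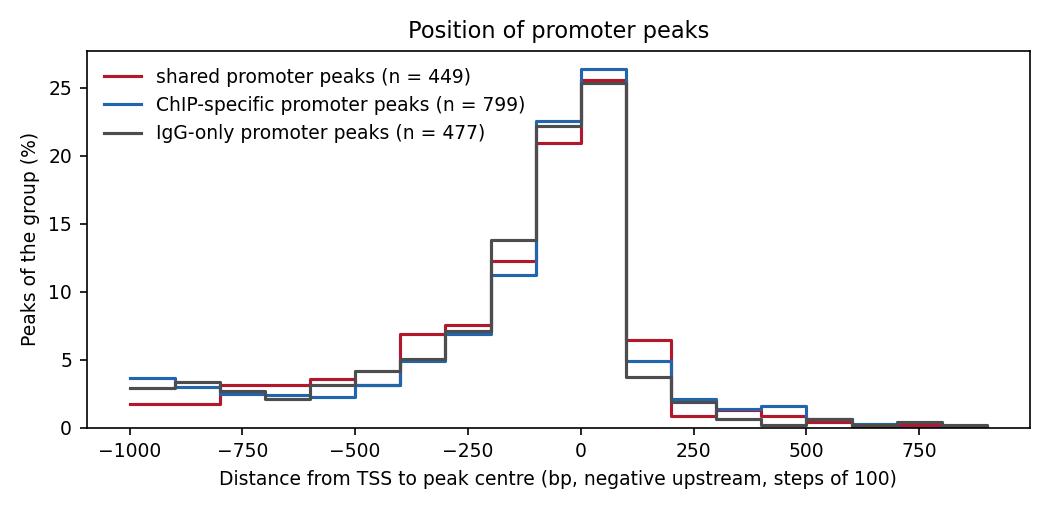
Share of shared, ChIP-specific and IgG-only promoter peaks (%, vertical axis) by distance of the peak's centre from the TSS (bp, horizontal axis, steps of 100 bp, negative upstream). All 3 groups are highest in the 100 bp downstream of the TSS, where 25.6% of shared peaks lie.

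Lists tied to the clock and to T cells gave few members. The count was 0 of 22 core clock genes, 0 of 25 Th1 genes and 0 of 25 genes of T cell receptor signalling, beside 1.64% of all protein-coding genes. Lists of this size hold few genes at that rate, so a count of 0 says little about them. The core clock list had 1 gene with a ChIP-specific promoter peak and the Th1 list none, beside 2.66% of all protein-coding genes. Of 9 genes of the NCoR and HDAC3 corepressor, Tbl1xr1, a subunit of the complex, was a member with a ChIP peak of 125 bp, 540 bp upstream, at an FDR of 0.0214. Of 18 regulators of other T helper fates Ikzf2, the factor Helios of regulatory T cells, was a member with 325 bp in both lists. Lpl, lipoprotein lipase, was the 1 member of 18 lipid and glucose genes, with its ChIP peak of 350 bp wholly inside an IgG peak of 375 bp. No member came from 98 ribosomal protein genes.

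Nuclear receptor genes gave 3 members of 49 (6.12%), beside 1.64% of all protein-coding genes. Nr2f2, also called COUP-TFII, had a ChIP peak of 650 bp and an IgG peak of 600 bp, 657 bp upstream. Rxra, the retinoid X receptor that pairs with many other receptors, had 225 and 275 bp, and Nr3c2, the mineralocorticoid receptor, had 150 bp wholly inside an IgG peak of 200 bp. The same list had 4 genes with a ChIP-specific and 3 with an IgG-only promoter peak, beside 2.66% and 1.60% of all protein-coding genes.

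Counts for families of transcription factors and histones stand beside 1.64% of all protein-coding genes. Of 107 genes on a partial list of Hox, Pax and other homeobox genes, 7 were members (6.54%). They were Barx1 at 2 bp from the TSS, Hoxd8 at 15 bp upstream, Nkx2-1, Hoxa13, Hoxd11, Pax2 and Pax5. At Pax5, the B cell factor, 49.8% of a ChIP peak of 300 bp was covered by an IgG peak of 525 bp. The same 107 genes included 12 with a ChIP-specific promoter peak and 4 with an IgG-only one. Over all protein-coding genes those shares were 2.66% and 1.60%. For this list, a share above that of all genes was therefore not particular to the members. Sox11 and Sox3 were the members of 63 Sox and forkhead genes (3.17%), and 7 of 397 Zfp genes (1.76%) were members, among them Zfp704, Zfp358, Zfp740 and Zfp746. Of 76 histone genes Hist1h2ag, Hist1h2ba and Hist1h2bb were members (3.95%), and the peak at Hist1h2ag had an FDR printed as 0 in both lists. The longest ChIP peak of all members lay 810 bp upstream of Pou4f1, a POU factor of sensory neurons, with 900 bp inside an IgG peak of 925 bp.

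Further families were picked after the members' names had been seen, so their counts are descriptions. They stand beside 1.64% of all protein-coding genes. The members were 4 of 94 potassium channel genes (4.26%), Kcnh2, Kcnk3, Kcnn2 and Kcnq3. Of 40 calcium and sodium channel genes they were 2 (5%), Cacna1d and Cacna2d1. Glutamate, GABA and glycine receptor genes gave 3 of 51 (5.88%), among them Glrb, a glycine receptor subunit, and Grid1, of the glutamate family. Axon guidance gave 4 of 70 (5.71%), Efna5, Epha7, Ntn4 and Rgma. Ubiquitin-specific proteases gave 4 of 56 (7.14%), Usp13, Usp25, Usp34 and Usp7. ChIP-specific promoter peaks were at 3 potassium channel, 2 calcium and sodium channel, 3 receptor, 7 axon guidance and 4 protease genes of these lists. IgG-only promoter peaks were at 0, 0, 5, 4 and 0, in the same order. Over all protein-coding genes those shares were 2.66% and 1.60%. For receptors and axon guidance, a share above that of all genes was not particular to the members. Other lists picked in this manner lay nearer to the share of all genes. Cadherins and protocadherins gave 2 of 92 (2.17%), and Fgf, Wnt, Bmp and Tgfb family ligands 2 of 71 (2.82%). Collagens and laminins gave 1 of 56 (1.79%). Kcnk3, a background potassium channel, had a ChIP peak of 275 bp and an IgG peak of 300 bp. Solute carriers, a list fixed before the names were seen but with earlier results of these data known, gave 6 of 375 (1.6%). Among them was Slc40a1, the iron exporter, at 9 bp from the TSS. Of 1465 genes for olfactory and vomeronasal receptors, pseudogenes not counted, 1 was a member, Olfr1036. The olfactory receptor pseudogene Olfr29-ps1 was also a member, with a ChIP peak of 350 bp and an IgG peak of 100 bp.

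Chromatin regulators were also picked by name, with no total to set them against. Bmi1 and Phc1, subunits of Polycomb repressive complexes, had ChIP peaks of 450 and 200 bp over IgG peaks of 275 bp each. Crebbp, a histone acetyltransferase, had 300 bp with identical ends, and so had Rcor1, a corepressor of REST, with 200 bp. Mta1 of the NuRD complex had 300 bp inside an IgG peak of 350 bp. Fmr1 and Aff2, whose human counterparts carry CGG-type repeats at fragile sites, were members on chromosome X. They came from a set of repeat and disease genes that was also picked by name. No RefSeq promoter window lay under the peak at Fmr1, so no sequence was searched for a CGG run there. The window at Aff2 held a run of 4 units. At Fmr1 a ChIP peak of 175 bp lay inside an IgG peak of 475 bp, and at Aff2 the ChIP peak of 875 bp was longer than the IgG peak of 675 bp.

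Some genes carried more than 1 peak. Brpf3, Mtcl1, Cdh2 and Asap1 each had 2 members, and both at Cdh2, N-cadherin, overlapped 1 IgG peak of 775 bp, so they are not separate sites in the mock. Of the 445 member genes 178 (40.0%) were also nearest to a ChIP-specific peak of any class. These include 25 with a ChIP-specific promoter peak. No share over all genes was computed for these counts, so they do not show whether 40.0% is high. An IgG-only peak was nearest to 152 of the member genes (34.2%), against 24.3% of the 785 genes with a ChIP-specific promoter peak.

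At the edge of the rule, the smallest overlap was 24 bp, at Raver2, where the ChIP peak was covered to 6.42%. Zc3h12c and Gm11240 overlapped by 49 bp, and Shisa6 and Tmem200c by 74 bp. Just outside lay Tunar with a gap of 26 bp, and Nog, 3110039M20Rik, Shank3 and Large with gaps of 76 bp. In all, 6 ChIP-specific promoter peaks lay within 100 bp of an IgG peak and 60 within 1000 bp. The weakest members by ChIP FDR were at Rgma with 0.0489, the second peak of Cdh2 with 0.0488 and Cntnap2 with 0.0456, and each lay wholly inside its IgG peak.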

How the data were processed

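Peak lists for the Nr1d1 ChIP and the IgG mock, each over the input, were deposited by the authors with a HOMER annotation. BWA, HOMER and mm10 are named without versions, per the submitters' processing notes. The sources used here give neither the peak caller nor the way in which the 3 ChIP libraries were pooled or merged. Per the file headers, each peak has an FDR (a q-value, at most 0.05). The deposited score equals the peak's length, in steps of 25 bp. Lists held 19586 ChIP and 17111 IgG peaks, and 2 and 1 without annotation were left out.

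Overlaps of 1 bp or more were computed in Python 3.11.15 (pandas 2.3.3, numpy 2.4.6, scipy 1.17.1) and tested on simulated intervals. Where a member met several IgG peaks (4 members), the one with the largest overlap was used. Promoter windows and gene kinds came from RefSeq on GRCm38.p6. Distances to the TSS are those of the HOMER annotation, whose start can differ from the RefSeq start. Genes were matched by current or older symbol. Named genes were the first 15 protein-coding and 8 other members by FDR and length, up to 4 per gene list nearest to the TSS, and the extremes of distance, overlap, length and FDR. Not all genes named by the rule are reported. Members and lists were chosen with earlier results of these data known. Alternatives changed overlap, FDR, promoter definition and chromosomes.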

Additional observations from a re-analysis of the deposited data

How the results depend on the processing

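The number of shared promoter peaks was 264 with an FDR of 0.01 or less in both lists, 67 with an FDR printed as 0 in both, and 750 with all peaks within 1000 bp of a TSS. The shared share of ChIP promoter peaks was 30.7% when 50% of the ChIP peak had to be covered and 28.5% when 50% of both peaks had to be. It was 45.9% with both lists cut to an FDR of 0.01 or less, and 72.8% with both cut to an FDR printed as 0. The 90.2% given above limits the ChIP list only. At an FDR of 0.01 the median length was 350 bp, the IgG peak was longer in 24.2%, and an FDR printed as 0 was held by 29.2%. With 50% of the ChIP peak covered the IgG peak was longer in 38.6%. Within 1000 bp of a TSS, whatever the class, 61.5% were centred downstream, since peaks inside the gene then count. CGG runs of 5 or more units were in 6.90% of member windows, against 0.810% of all. The other 29 values stayed within the main interval or within 1.5 times the count. The cause of the shifts with overlap and FDR was not tested. Alternatives for the windows were chosen after seeing the data. No replicate could be left out, and the depth behind a peak is unknown. No paired analysis was possible because the lists hold no value per library.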
